A study of Rattus norvegicus with 196 samples.

Results

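Splicing factors and RNA helicases were followed across 25 regions of the rat brain in animals given the antidepressant fluoxetine (FT) and in control animals (Sham). The group holds 16 of the 29188 transcripts counted, and the name of each in the study's list of differentially expressed genes (DEGs) begins like that of a spliceosome, SR protein, RNA-binding motif or helicase gene (Sf3a, Sf3b, Srsf, Snrp, Snrnp, Hnrnp, Prpf, Ddx, Dhx, Lsm, Rbm or U2af). No Hnrnp or Lsm transcript was among them. Only the part of that list with 1989 transcripts was used, and each transcript in it had been called by the study in several regions. The members were thus chosen by their FT against Sham calls, so every FT against Sham value below describes the members and is not a test of them. Levels in Sham animals were not used by the rule and were tested.

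RNA of pooled brain punches was sequenced in 196 libraries, 98 FT and 98 Sham. FT rats were 2 months old and received fluoxetine in their drinking water at 18 mg/kg per day for 6 weeks, while Sham rats of the same age received water. All animals were male Long-Evans rats, an outbred strain, and each library pooled punches of 1 region from several animals. Replicates carry the numbers 1, 3, 4 and 5, and an FT and a Sham library of the same number were processed in parallel and are called a pair. Regions are abbreviated as in the labels, from the prelimbic cortex (PLC) to the nucleus of the solitary tract (Nts).

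Reads on transcripts ranged from 4586 to 50893913 per library. The lowest total, that of Sham Nts replicate 3, was far below the next, 543403 in Sham ILC replicate 3, and all 16 members had 0 reads in it. Complete pairs numbered 2 in the arcuate nucleus (Arc) and in mPoA, both from replicates 4 and 5, and 3 in CGC, where the pair of replicate 1 was left out. In the Sham libraries Th, the enzyme of catecholamine synthesis, was highest in VTA and LC, and Tcf7l2, a thalamic marker, in MDT. Hcrt, a peptide of the lateral hypothalamus, had a higher mean in VMH (223 CPM, normalised read counts per library of standard size) than in LH (155 CPM), and Avp was highest in VMH (304 CPM). Oxt and Avp, the peptides of the paraventricular nucleus, had at most 23.7 and 7.15 CPM in the 4 Sham PVN libraries, and Tcf7l2 reached a mean of 413 CPM there, so the PVN label is not borne out by its peptides. The replicate numbers differed strongly in makeup, with a median of 68.6% of Sham counts on the 50 most abundant transcripts in replicate 3 and between 28.2% and 37.5% in the others.

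The spliceosome removes introns in steps that these proteins help to order. SR proteins bind enhancer sequences in exons and recruit the U1 and U2 small nuclear ribonucleoproteins (snRNPs) to the splice sites, and DEAD- and DEAH-box helicases use ATP to remodel RNA and its protein partners. The brain is known for its wide use of alternative splicing. Of the 16 members, 3 are SR proteins (Srsf2, Srsf3 and Srsf7), 6 belong to the core spliceosome or its snRNPs (Snrnp70, Snrpd1, Sf3a1, Sf3b5, U2af2 and Prpf19), 5 are helicases (Ddx17, Ddx25, Ddx49, Dhx36 and Dhx37) and 2 are RNA-binding motif proteins (Rbm7 and Rbm42).

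The sequence just upstream of the transcription start is shown for 6 members that the results below turn on: the 3 SR proteins, Dhx36, Sf3a1 and Snrnp70. RefSeq promoters of build GRCr8 matched 15 of the 16 members by symbol, with 16 promoters because Ddx17 has 2, and the files themselves were made on rn5. Each line gives the 100 bases before the start, 5′ to 3′ on the gene's strand. Capitals mark matches on either strand to the TATA box (letters TATAAA), the CCAAT box (letters CCAAT), the GC box (letters GGGCGG), the core of ETS factor sites (letters CCGGAAG), the cyclic AMP response element (letters TGACGTCA) and the core of NRF1 sites (letters GCATGCGC). Srsf2 lies at chr10:102554142-102554241 (minus strand), Srsf3 at chr20:7093485-7093584 (plus), Srsf7 at chr6:20563952-20564051 (plus), Dhx36 at chr2:149044192-149044291 (minus), Sf3a1 at chr14:83254871-83254970 (plus) and Snrnp70 at chr1:105012852-105012951 (minus).
Srsf2: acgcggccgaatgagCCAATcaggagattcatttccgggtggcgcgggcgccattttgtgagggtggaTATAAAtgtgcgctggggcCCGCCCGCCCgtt
Srsf3: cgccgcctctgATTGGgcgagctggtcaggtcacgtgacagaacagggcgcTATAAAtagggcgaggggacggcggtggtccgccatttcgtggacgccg
Srsf7: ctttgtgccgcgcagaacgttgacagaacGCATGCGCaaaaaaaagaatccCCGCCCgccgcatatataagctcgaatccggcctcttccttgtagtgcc
Dhx36: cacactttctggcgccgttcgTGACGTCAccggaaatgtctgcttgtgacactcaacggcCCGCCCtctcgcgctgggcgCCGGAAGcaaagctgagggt
Sf3a1: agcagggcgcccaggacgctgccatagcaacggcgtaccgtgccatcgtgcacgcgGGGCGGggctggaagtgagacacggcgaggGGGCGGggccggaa
Snrnp70: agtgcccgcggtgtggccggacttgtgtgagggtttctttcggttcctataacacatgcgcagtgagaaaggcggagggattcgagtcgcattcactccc

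The promoters of Srsf2 and Srsf3 each held a TATAAA and a CCAAT match in these 100 bases, Dhx36 held the cyclic AMP response element letters TGACGTCA, and Snrnp70 held none of the 6 motifs. Over the full 250 bases upstream, 6 of the 16 member promoters held CCGGAAG, the core letters of ETS factor sites, against 7.27% of all 33469 promoters. CCAAT was in 7 member promoters and in 34.0% of all, and GGGCGG in 7 and 30.5%. TATAAA was in 3 member promoters and 12.9% of all, and TGACGTCA in 2, Ddx49 and Dhx36, and 1.59%. GCATGCGC, the core letters of the NRF1 site, was in 2, Rbm7 and Srsf7, and 2.20% of all. These are letter matches and say nothing of binding.

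FT was compared with Sham within each region by edgeR's quasi-likelihood test with the replicate number as a block. A DEG had a log2 fold change (log2FC) of 0.32 or more in either direction and passed 0.1 after Benjamini-Hochberg adjustment over the region's transcripts. Over all regions 1.93% of transcript tests passed, 1.01% higher and 0.913% lower in FT. Of the 400 tests of members, 21 were called higher and 8 lower, which is read no further because the rule used this contrast. DESeq2, the tool named in the study's methods, called 48 higher and 25 lower. It gave an adjusted p to 255508 transcript tests, against 334878 by edgeR, so its member calls are not read as a share of the 400. Of its tests 4.37% were called, 2.60% higher and 1.77% lower.

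The heat map of log2FC shows that the members did not move as a block. Snrnp70, Sf3a1, Ddx25 and Dhx37 had a positive log2FC in all 25 regions, and Rbm42 in 24. Snrpd1 was negative in all 25, and Ddx17, Srsf7, Sf3b5 and U2af2 were each negative in 23. The median log2FC over members and regions was 0.24, whereas the median of all transcripts lay between -0.05 and 0.05 in every region.

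**Figure D1:**
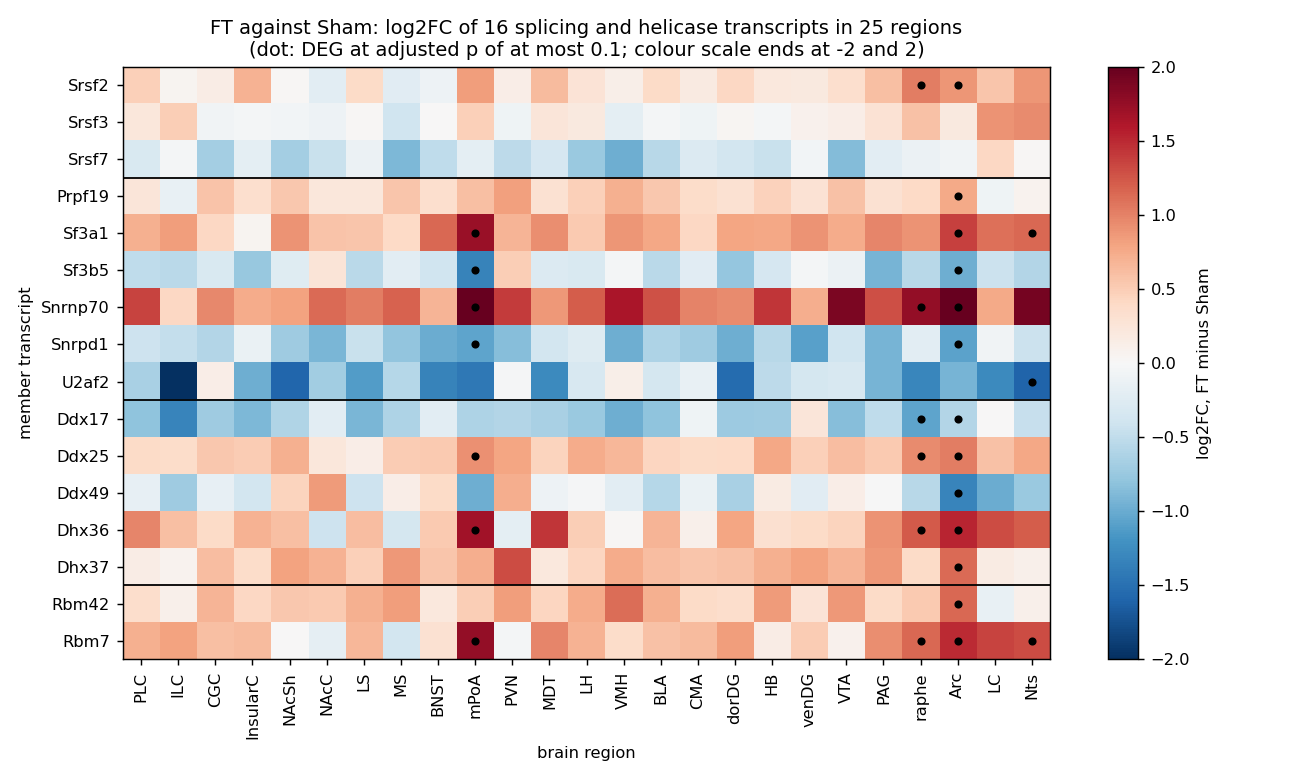
Heat map of log2FC (FT minus Sham, colour) for the 16 members (rows, grouped as SR, core spliceosome, helicase and RNA-binding motif proteins) in 25 brain regions (columns), with dots for the 29 DEG calls. Calls fell in Arc (13), mPoA (7), raphe (6) and Nts (3) only.

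All 29 calls lay in Arc, mPoA, raphe and Nts. In Arc 13 members were called, 9 higher and 4 lower, where 24.6% of all transcripts tested were called, 13.7% higher and 10.8% lower. In mPoA it was 7 members, against 9.59% of all transcripts, in raphe 6 against 6.60%, and in Nts 3 against 4.16%. Over the other 21 regions edgeR called 0.0481% of transcript tests and no member. There 121 of the 336 member tests had an unadjusted edgeR p under 0.05. Among all transcripts the number under 0.05 ran from 935 of 13011 in ILC to 2338 of 13466 in LH. DESeq2 made 45 member calls in these regions. Over all transcripts its calls per region ran from 49 of 3329 in LS to 948 of 12967 in NAcSh. The rule used this contrast, so these member counts are read no further. By DESeq2 all 16 members had at least 1 call. The Arc and mPoA values rest on the pairs of replicates 4 and 5 alone. The Nts fit includes the Sham library of 4586 reads, and without replicate 3 it called 0 of 12953 transcripts.

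Among the SR proteins the 3 members differed in direction. Srsf2, which binds exonic enhancers and stays in the nucleus, had a median log2FC of 0.34 over regions, from -0.22 in MS to 1.03 ± 0.21 (SE) in raphe. In raphe its level in Sham replicates 1, 3, 4 and 5 was 53.3, 65.8, 83.2 and 144 CPM, and in FT 87.5, 110, 280 and 269 CPM. Every FT library was above the Sham library of its number, while the groups overlapped. The means were 87 ± 40 CPM in Sham and 186 ± 102 CPM in FT (SD, n = 4).

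Srsf7, which shuttles to the cytoplasm and takes part in mRNA export, leaned the other way, with a median log2FC of -0.34. In LH its Sham levels were 77.8, 35.3, 173 and 123 CPM in replicates 1, 3, 4 and 5 and its FT levels 46.9, 18.0, 115 and 74.5 CPM, lower in 4 of 4 pairs, with overlapping groups. The log2FC there was -0.74 ± 0.16 and did not pass the test. Srsf3, the smallest SR protein and also an export adaptor, had a median log2FC of 0.04, positive in 15 of 25 regions, with its highest value, 0.95, in Nts. RefSeq lists 10 pseudogene records named after Srsf3, 7 after Srsf7 and 1 each after Prpf19, Sf3a1 and Snrpd1. Reads of these transcripts may thus be shared with near copies, and their counts are uncertain.

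Of the core spliceosome, Snrnp70 had the highest log2FC. It encodes the U1-70K protein, which helps the U1 snRNP to hold the 5′ splice site. Its median log2FC was 1.18, from 0.41 in ILC to 2.64 ± 0.44 in Arc. In MS its Sham levels were 32.8, 37.2, 55.2 and 33.1 CPM in replicates 1, 3, 4 and 5 and its FT levels 53.0, 51.2, 155 and 134 CPM. FT was higher in 4 of 4 pairs, but by far more in replicates 4 and 5 than in 1 and 3. The FT libraries of replicates 1 and 3 lay just under the highest Sham library.

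Sf3a1, a subunit of the SF3A complex of the U2 snRNP, had a median log2FC of 0.79. In BNST it stood at 53.3, 64.7, 75.6 and 56.1 CPM in Sham and at 90.8, 80.8, 215 and 220 CPM in FT. The groups did not overlap, with means of 62 ± 10 and 152 ± 76 CPM (SD, n = 4) and a log2FC of 1.15 ± 0.29. Prpf19, the ubiquitin ligase of the Prp19 complex, had a median of 0.37 and its highest value, 0.82, in PVN. There Sham libraries lay between 37.7 and 48.4 CPM and FT libraries between 67.6 and 84.0 CPM, without overlap and with little spread between replicate numbers.

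Other core members had negative medians. Snrpd1, a protein of the Sm ring shared by several snRNPs, had a median log2FC of -0.62 and its lowest value, -1.08 ± 0.19, in venDG. Its Sham levels in venDG were 52.2, 137, 36.1 and 26.4 CPM and its FT levels 24.9, 72.4, 13.1 and 14.4 CPM. FT was below Sham in 4 of 4 pairs, by a log2 ratio of -1.45 in replicate 4 and of -0.87 to -1.06 in the others, and the groups overlapped. Sf3b5, a small subunit of SF3B, had a median of -0.41. U2af2, which binds the polypyrimidine tract, had a median of -0.92 but rests on 5544 reads over all 196 libraries, the fewest of the members.

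The helicases also split. Dhx36, which unwinds G-quadruplexes, had a median log2FC of 0.60, from -0.41 in NAcC to 1.68 ± 0.37 in mPoA. In raphe its Sham levels were 65.4, 71.2, 198 and 267 CPM in replicates 1, 3, 4 and 5 and its FT levels 100.7, 111, 941 and 690 CPM. The FT libraries of replicates 1 and 3 stayed below the Sham libraries of replicates 4 and 5. Ddx25, known as a testis helicase with a part in mRNA export, varied much less between replicate numbers. In raphe it stood at 46.9, 53.7, 35.0 and 50.6 CPM in Sham and at 81.7, 85.0, 102 and 84.3 CPM in FT, with no overlap and a log2FC of 0.94 ± 0.19.

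Dhx37, a helicase of ribosome biogenesis, had a median log2FC of 0.62 and reached 1.30 in PVN, where its Sham libraries held 2.99 to 9.27 CPM and its FT libraries 7.84 to 17.8 CPM. Ddx17, a cofactor of splicing and of microRNA processing, had a median of -0.65. In raphe its Sham levels of 10.8, 8.36, 35.1 and 30.8 CPM stood against 4.76, 3.88, 15.8 and 17.2 CPM in FT, so that all 4 pairs were lower while the groups overlapped. Ddx49, which also acts in ribosome biogenesis, was the most mixed helicase, from -1.33 in Arc to 0.86 in NAcC, with a median of -0.17.

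Both RNA-binding motif members had a positive log2FC in most regions, 22 for Rbm7 and 24 for Rbm42, and passed the test in 4 and 1. Rbm7, a subunit of the nuclear exosome targeting complex, had a median log2FC of 0.64, with its calls in Arc, mPoA, Nts and raphe. In LC it stood at 7.07, 5.32, 16.96 and 14.2 CPM in Sham and at 17.7, 7.40, 54.6 and 39.3 CPM in FT, higher in every pair. Rbm42, a partner of hnRNP K, had a median of 0.52 and in HB stood at 42.7, 91.7, 20.1 and 16.8 CPM in Sham against 80.9, 170, 32.1 and 31.7 CPM in FT. All 4 pairs were higher here too, with overlapping groups and an opposite order of the replicate numbers, since Rbm42 was highest in replicate 3.

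**Figure D2:**
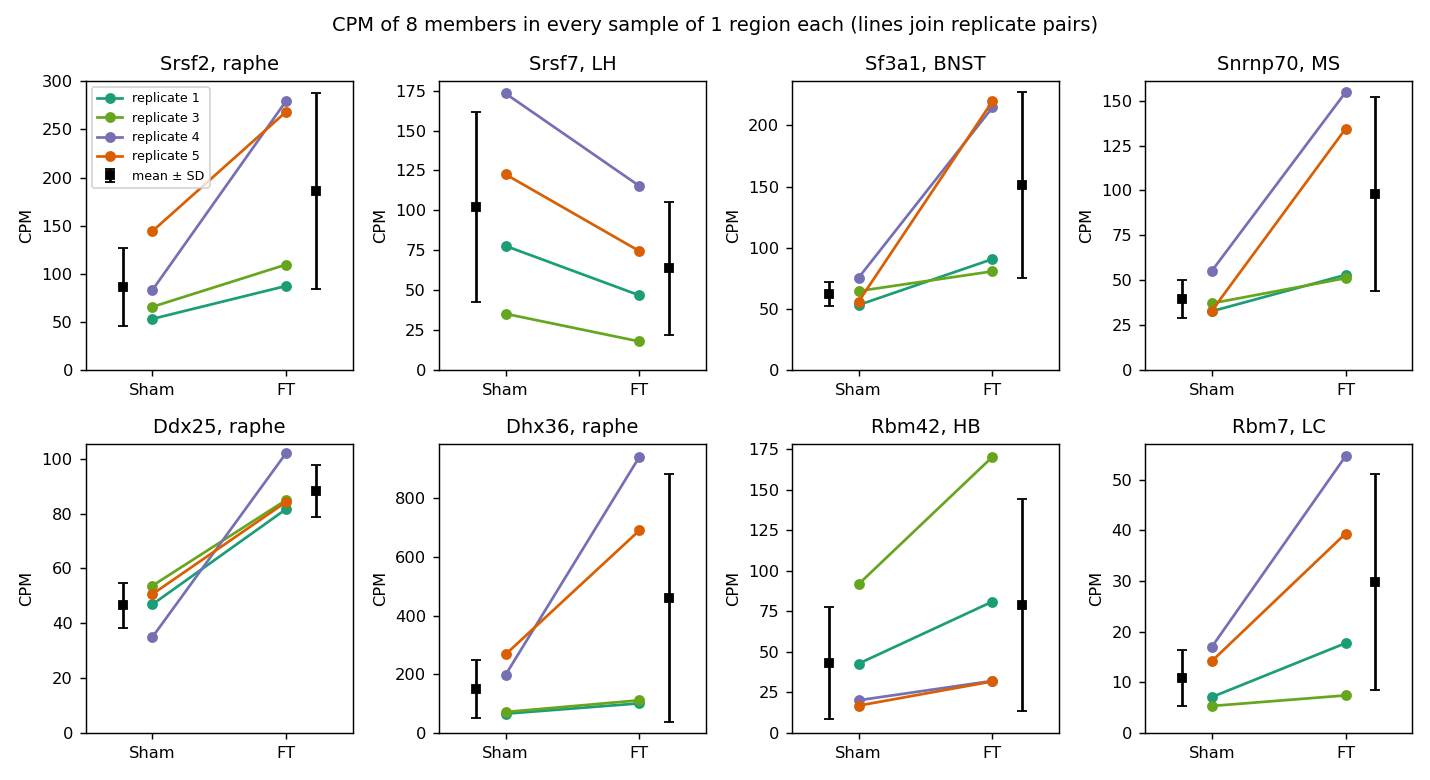
CPM (y axis, from 0) of 8 members in the Sham and FT libraries of 1 region each. Coloured lines join the libraries of a replicate number, and black squares with bars give mean ± SD of 4 libraries. Lines of replicates 4 and 5 are the steepest for Snrnp70, Sf3a1, Dhx36 and Rbm7, and only Ddx25 and Sf3a1 show no overlap between groups.

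The size of the FT to Sham difference varied with the replicate number. For Snrnp70 the median log2 ratio over regions was 0.08 in replicate 1 and -0.01 in replicate 3, with FT higher in 11 of 22 regions in each, but 1.82 in replicate 4 and 2.52 in replicate 5, with FT higher in 25 of 25 regions in both. Sf3a1 showed 0.17 and 0.27 in replicates 1 and 3 against 1.31 and 1.38 in replicates 4 and 5. For Dhx36 the values were -0.14 and -0.18 against 1.02 and 1.72, and for Rbm7 -0.39 and -0.26 against 1.21 and 1.49. Srsf2 likewise went from -0.21 and -0.35 to 0.72 and 0.95. Dhx36, Rbm7 and Srsf2 thus had the opposite sign in the 2 groups of replicate numbers, while Snrnp70 and Sf3a1 were nearer to 0 in replicates 1 and 3. With library totals as the scale, 13 of the 16 members had a median log2 ratio of at least 0.32 in size and of the same sign in both replicates 4 and 5, against 25.8% of all transcripts, and 4 of these were under 0.32 in size in both replicates 1 and 3, against 10.6%. The rule used these pairs, so nothing is read from these counts.

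Sf3b5 and Ddx49 turned in sign the other way. Sf3b5 had medians of 0.10 and 0.20 in replicates 1 and 3 and of -0.95 and -0.68 in replicates 4 and 5, and Ddx49 had 0.54 and 0.59 against -0.35 and -1.09. Snrpd1, Ddx17, Srsf7, Rbm42, Ddx25, Prpf19, Dhx37 and U2af2 kept their direction in all 4 replicate numbers. Snrpd1 stood at -0.33, -0.31, -1.16 and -0.67 in replicates 1, 3, 4 and 5, Ddx17 at -0.53, -0.49, -0.48 and -0.83, and Srsf7 at -0.46, -0.75, -0.24 and -0.25. Rbm42 had medians of 0.29, 0.60, 0.47 and 0.78, and Ddx25 of 0.21, 0.16, 0.50 and 1.13. Prpf19 and Dhx37 were positive and U2af2 negative in each number, whereas Srsf3 stood at -0.14, -0.15, 0.01 and 0.58.

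**Figure D3:**
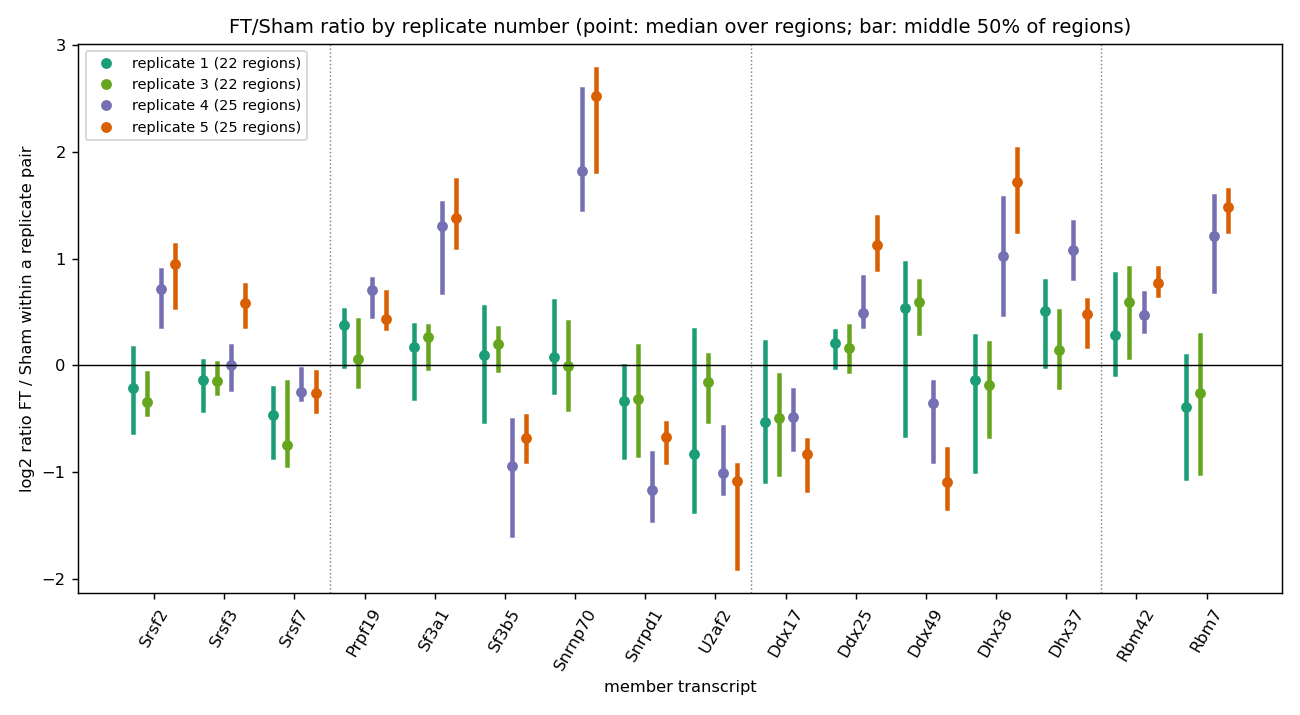
Log2 ratio of FT to Sham within pairs (y axis) for each member (x axis) and replicate number (colour). Points are medians over 22 regions for replicates 1 and 3 and over 25 for replicates 4 and 5, and bars span the middle 50% of regions. Snrnp70 has medians of 1.82 and 2.52 in replicates 4 and 5 and of 0.08 and -0.01 in 1 and 3.

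The same split was present among all transcripts. Over 13785 transcripts with a mean count of at least 10, the median absolute log2 ratio was 0.24 in replicates 1 and 3 each, 0.30 in replicate 4 and 0.34 in replicate 5. The members had 0.34 in replicate 1, 0.30 in replicate 3, 0.84 in replicate 4 and 0.92 in replicate 5. In replicate 5, 29.1% of all transcripts had the same sign in all regions or all but 1, and 13 of the 16 members did, while in replicate 1 it was 0.196% and no member. Since regions of a number share their animals and their processing, these regions are not independent, and FT, animal pool and library handling cannot be told apart within a replicate number.

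Cell type markers were compared in the same way, and their lists did not all shift alike. Of 4 astrocyte markers, Kcnj10, Slc6a11 and Gja1 were called lower in 3, 3 and 1 regions and Slc7a10 higher in 2, and the median log2 ratio of the list was -0.01, -0.04, -0.90 and -0.78 in replicates 1, 3, 4 and 5. Their summed level was 166 to 512 CPM in FT and 105 to 633 CPM in Sham. The 5 neuron markers had 1 call higher and 5 lower, with median log2 ratios of 0.28, 0.11, -0.21 and -0.47 in replicates 1, 3, 4 and 5, and summed to 749 to 7547 CPM in FT and 753 to 8851 CPM in Sham. The 10 oligodendrocyte markers had 6 calls higher and 3 lower and summed to 211 to 2050 CPM in FT and 153 to 2059 CPM in Sham. For 4 microglia markers the calls were 3 higher and 3 lower and the sums 92.2 to 324 and 59.1 to 179 CPM, and the median sum was 149.5 CPM in FT and 82.7 CPM in Sham in replicate 5 against 154 and 129.6 CPM in replicate 1. The choroid plexus list of 3 had 1 call each way and 1.76 to 130964 CPM in FT against 2.25 to 69441 CPM in Sham, and the 2 globin transcripts had no edgeR call, with 47.1 to 6471 and 58.4 to 11816 CPM. In replicates 1, 3, 4 and 5 the median log2 ratios of the oligodendrocyte list were 0.11, 0.09, -0.04 and 0.18. Those of the microglia list were 0.22, 0.17, -0.01 and -0.11. The choroid plexus list had -0.76, -0.13, -0.40 and -0.40, and the globin list -0.45, -0.18, -0.07 and 0.12. The part of any of these lists in the members' values was not tested. In such bulk samples fewer cells of a type and less RNA per cell cannot be told apart.

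Reads outside annotated features moved in opposite directions in replicates 4 and 5. Their median share was 47.5% in FT and 41.1% in Sham for replicate 4, and 43.1% in FT and 46.9% in Sham for replicate 5. The part of these shares in the members' values was not tested.

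Other genes of the pathway came from the same list of DEGs and so share its choice by readout. Of 28 further splicing genes, 18 were called higher in at least 1 region and 7 lower, with 41 and 18 calls in 700 tests and a median log2FC of 0.26, where 1.01% and 0.913% of all transcript tests were called. Wdr83, a spliceosome-associated WD protein, had a median of 1.52 and was positive in 25 regions, and its median log2 ratios were 0.42, 0.08, 2.81 and 2.05 in replicates 1, 3, 4 and 5. The 5 listed splicing regulators of the Celf, Mbnl and Ptbp families had negative medians. These were -1.11 for Celf4, -0.63 for Celf2, -0.57 for Celf6, -0.79 for Mbnl1 and -0.56 for Ptbp2, with 3, 3, 3, 3 and 1 calls lower. In replicates 1, 3, 4 and 5 Celf6 had median log2 ratios of 0.17, 0.02, -0.97 and -1.19. Celf4 had -0.19, 0.03, -0.67 and -2.57, while Celf2, Mbnl1 and Ptbp2 were negative in each number. Of 7 genes of pre-mRNA end processing and export, 6 were called higher and 1, Sympk, lower, with 16 and 2 calls in 175 tests. The translation helicases Eif4a1 and Eif4a2 had medians of -0.44 and -0.42, with 3 calls lower for Eif4a1 and none for Eif4a2.

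Levels in Sham animals were compared between regions in 1 edgeR fit over 96 Sham libraries, with the replicate number as a block and without Sham Nts replicate 3 and Sham CGC replicate 1. Between the 25 regions 10 of the 16 members differed at an adjusted p of at most 0.1, against 75.2% of all transcripts tested. The smallest adjusted p belonged to Sf3a1 (6.88e-09), Rbm7 (1.98e-07), Srsf7 (6.05e-07) and Prpf19 (6.30e-06). Dhx37 (0.352), Snrnp70 (0.307), Sf3b5 (0.228), Snrpd1 (0.210), Srsf2 (0.108) and Srsf3 (0.103) did not pass.

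**Figure D4:**
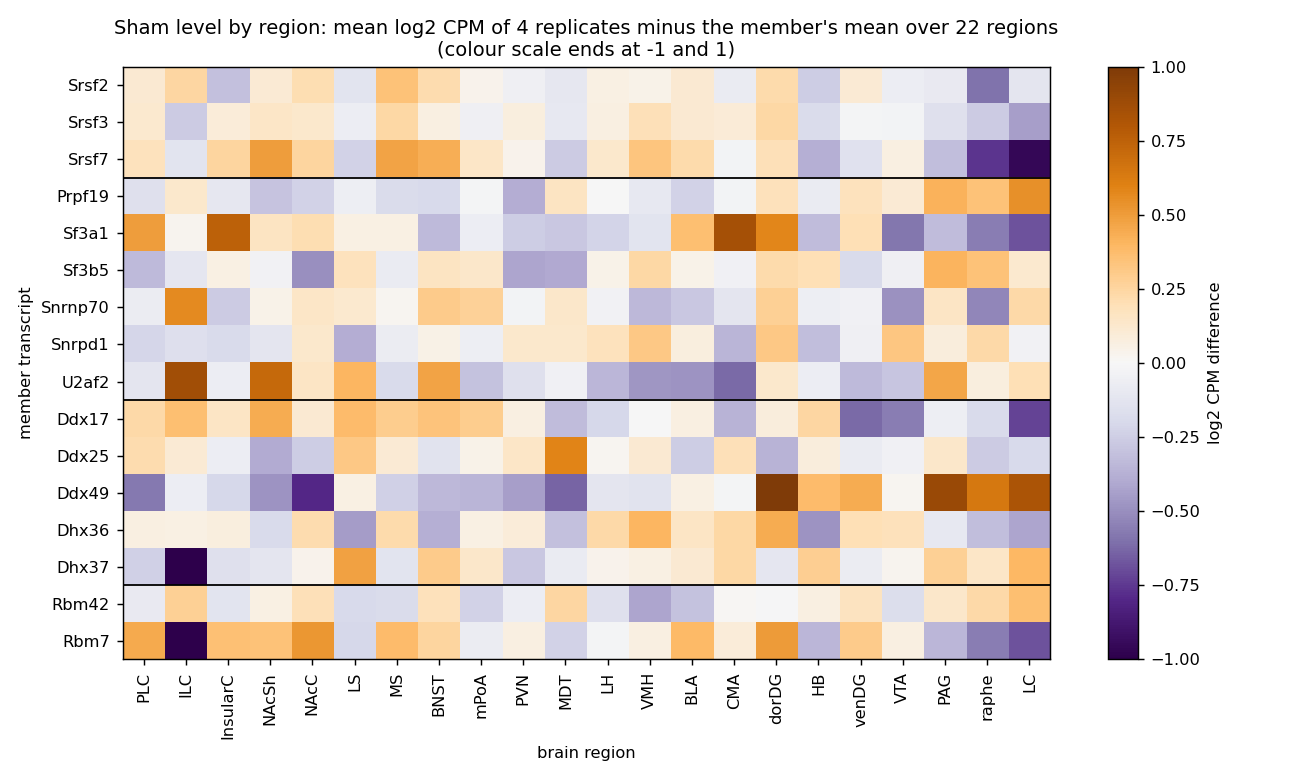
Sham level of each member (rows) in the 22 regions with 4 Sham libraries (columns), as the mean log2 CPM minus the member's mean over those regions (colour, scale ends at -1 and 1). Srsf7 and Sf3a1 are low in LC and raphe, and Ddx49 is high in dorDG, PAG and LC.

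Sf3a1 was highest in CMA, with 76.3, 93.4, 294 and 177 CPM in Sham replicates 1, 3, 4 and 5, and lowest in LC, with 46.6, 53.0, 48.1 and 44.4 CPM. The groups did not overlap, and the LC libraries hardly varied while the CMA libraries spread widely. Srsf7 was highest in NAcSh, at 97.7, 39.9, 308 and 176 CPM, and lowest in LC, at 30.5, 10.4, 108 and 110 CPM. Here the replicate numbers differed more than the regions, but NAcSh was above LC in each of the 4. Ddx49 was highest in dorDG, at 44.0, 33.7, 11.2 and 17.4 CPM, and lowest in NAcC, at 7.54, 13.2, 1.17 and 11.6 CPM.

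Prpf19, in contrast, had its highest level in LC (108, 113, 46.7 and 52.1 CPM) and its lowest in PVN (33.9, 41.8, 38.0 and 41.1 CPM). Ddx25 was highest in MDT and lowest in NAcSh, with means of 90 ± 30 and 45 ± 17 CPM (SD, n = 4). Rbm7 and Dhx37 were lowest in ILC, a place that rests on the ILC library of replicate 3 with 543403 reads, in which both were listed at 0. For no member did a step between neighbours in the order of the 22 regions exceed the larger SD of the 2 regions, so only the ends of each order are named.

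The 4 cortical regions (PLC, ILC, CGC and InsularC) were then set against the 5 of the midbrain and brainstem (VTA, PAG, raphe, LC and Nts) in the same fit. In cortex 6 members were higher and 5 lower at the same thresholds, where 26.3% of all transcripts were higher and 29.7% lower. The members' counts are close to these shares and are not read as a result about the group. The groups of libraries overlapped for each member.

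Higher in cortex were Sf3a1, by a log2FC of 1.12 ± 0.13 (adjusted p = 1.37e-11), Rbm7 (0.90 ± 0.11, 1.36e-10), Srsf7 (0.77 ± 0.12, 4.97e-08) and Ddx17 (0.65 ± 0.16, 0.000504), with Dhx36 (0.36 ± 0.15, 0.0332) and Srsf2 (0.33 ± 0.12, 0.0123) close to the fold threshold. Sf3a1 libraries had a median of 113 CPM in 15 cortical and of 48.5 CPM in 19 midbrain and brainstem libraries. Those of Srsf7 had medians of 179 and 88.9 CPM. Srsf3, the remaining SR protein, had a log2FC of 0.30 ± 0.10 (adjusted p = 0.00643), just under the fold threshold. In the FT libraries the same contrast gave 0.06 ± 0.09 for Srsf2 and -0.08 ± 0.07 for Srsf3.

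Lower in cortex were Ddx49 (-0.999 ± 0.23, adjusted p = 0.000124), Sf3b5 (-0.52 ± 0.16, 0.00465), Prpf19 (-0.51 ± 0.10, 4.55e-06), Dhx37 (-0.49 ± 0.15, 0.00316) and Snrpd1 (-0.33 ± 0.13, 0.0276). Ddx49 and Dhx37, both helicases of ribosome biogenesis, were lower where Dhx36 and Ddx17 were higher. Sf3a1 and Sf3b5, subunits of the same U2 snRNP, stood on opposite sides. Ddx25, Rbm42, Snrnp70 and U2af2 did not pass, the last with a log2FC of 0.05 ± 0.27. All 10 oligodendrocyte markers were lower in cortex in the same test, and their part in these differences was not tested.

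In the FT libraries, fitted in the same way, 3 members were higher and 4 lower in cortex, where 25.5% and 25.2% of all transcripts were. All 7 had the same call in Sham. Sf3a1 had 0.69 ± 0.15, Rbm7 0.61 ± 0.14 and Srsf7 0.52 ± 0.15 on the higher side, and Ddx49 had -0.85 ± 0.15, Dhx37 -0.58 ± 0.11, Sf3b5 -0.52 ± 0.13 and Prpf19 -0.41 ± 0.09 on the lower. The difference between the FT and the Sham contrast was not tested.

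**Figure D5:**
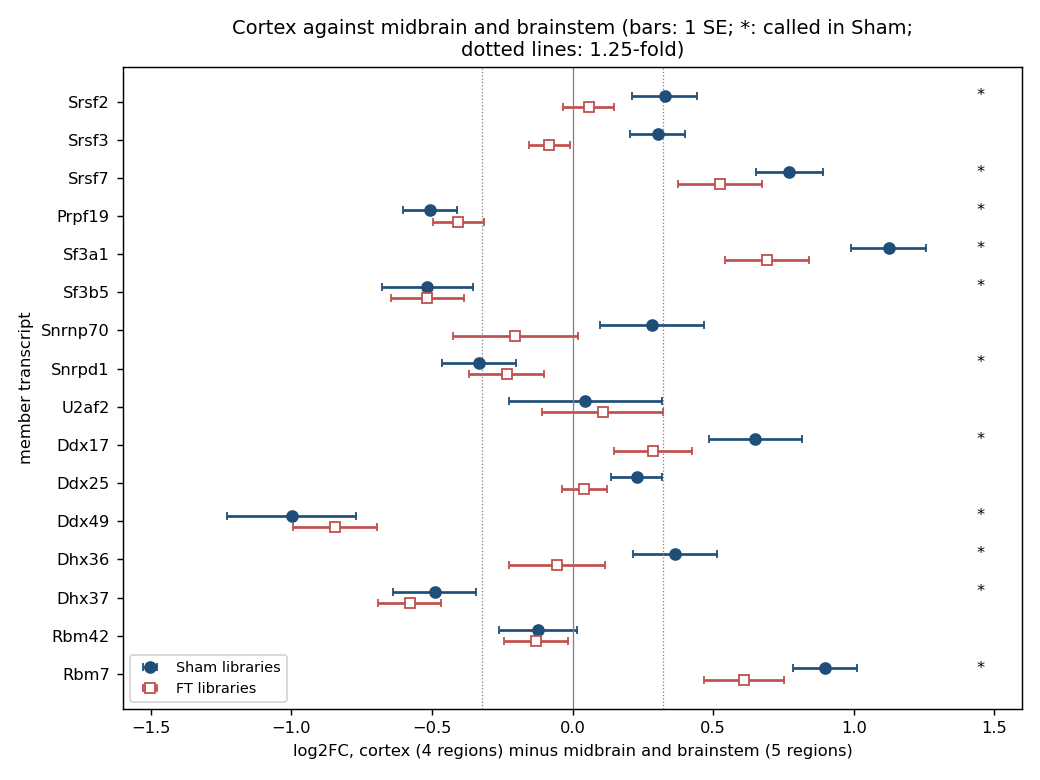
Log2FC of cortex against midbrain and brainstem (x axis) with 1 SE for the 16 members (y axis), in Sham (filled circles) and FT libraries (open squares). Asterisks mark the 11 members called in Sham, and dotted lines mark the fold threshold. Sf3a1 and Ddx49 lie at the ends, at 1.12 and -0.999 in Sham.

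The replicate number was tested in the same Sham fit. All 16 members differed between replicate numbers, as did 96.6% of all transcripts. The mean of replicates 4 and 5 was above that of 1 and 3 for Srsf7 (log2 difference 1.98), Ddx17 (1.73), Dhx36 (1.66), Rbm7 (1.04), Srsf2 (0.61), Sf3a1 (0.48) and Srsf3 (0.37). It was below for Rbm42 (-2.06), U2af2 (-1.80), Ddx49 (-1.18), Snrpd1 (-1.04), Sf3b5 (-0.63), Prpf19 (-0.50), Dhx37 (-0.42), Ddx25 (-0.40) and Snrnp70 (-0.36).

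For Srsf7 the median Sham level over regions was 67.4, 29.1, 202 and 171 CPM in replicates 1, 3, 4 and 5, and for Rbm42 it was 42.0, 81.9, 15.1 and 13.6 CPM. Dhx36 went from 99.8 and 75.3 CPM to 329 and 238 CPM. What sets the numbers apart, animals or library handling, cannot be told apart here.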

How the data were processed

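The authors deposited raw counts of reads per Ensembl transcript for each library, from 76 bp paired-end reads aligned to rn5 with STAR and counted with HTSeq, without normalization. Tool versions and the strand setting of the counting are not given in the sources used here. Reads falling on several transcripts were set aside as ambiguous (median 5.52%), which lowers counts where isoforms overlap. Names came from the study's list of DEGs. The members, lists and tests were chosen with earlier results of these data known. dorCA1 and venCA1 were not analysed here, and 1 transcript that matches the rule is not reported here.

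From the deposited counts, edgeR 4.0.16 in R 4.3.3 was run with TMM factors and filterByExpr (minimum count 10, minimum total 15), for FT against Sham in each region and, over 96 Sham libraries, for region, cortex against midbrain and brainstem, and replicate number. The SE was taken as log2FC over the root of the F statistic. CPM are TMM-normalized, from the region's libraries for FT against Sham and from all Sham libraries for Sham levels, and log2 CPM used a prior count of 2. Ratios by replicate number leave out the Nts pair of replicate 3, and those over all transcripts use library totals. DESeq2 1.42.0 was an alternative, and the others are listed in the closing section. All 16 members passed the filter in all 25 regions. Scripts were tested on simulated data. Counts limit precision for low transcripts, and p-values measure the spread of FT to Sham differences between pools of animals or, in the Sham fit, the spread between regions within the same pools, so those for replicate number do not cover further pools.

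The replicate number entered as a block because the study's methods state that an FT and a Sham library of a number were processed in parallel. Deviations from group means of same-numbered libraries correlated across transcripts with a median r of 0.64. The lowest regional value was -0.03 (Arc) and the highest 0.76 (venDG). Every pair was above 0.1 in 23 of 25 regions, all but Arc (-0.11 and 0.05) and mPoA (-0.04 and 0.17). Arc and mPoA hold 20 of the 29 member calls, and some of their libraries had no partner. All members are named, and single-library values are given for the 2 members of each class with the most calls, plus some others chosen after their values were seen, in the region with the smallest unadjusted p among regions with 4 pairs, Nts excepted. Promoters came from RefSeq (GRCr8), and figures were drawn with matplotlib 3.10.9.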

Additional observations from a re-analysis of the deposited data

Results flagged for a closer look

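Of 48 groups of 4 libraries examined for the values given above, 3 held a library far from the others by Dixon's criterion, which chance alone gives in about 1 of 20 groups. Ddx25 in FT raphe stood at 102 CPM in replicate 4, against 81.7 to 85.0 CPM in the other 3, the same side as its difference from Sham. Sf3b5 in Sham PAG reached 190.0 CPM in replicate 1, against 69.5 to 78.1 CPM in the others, so that its rank as the highest region rests on that library. U2af2 in Sham CMA had 13.1 CPM in replicate 3, against 0.594 to 1.23 CPM in the others, and U2af2 was highest in replicate 3 over all regions, with a median of 12.1 CPM.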

How the results depend on the processing

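With the replicate block removed, edgeR called no member in any region and 1 transcript in all, where 21 higher and 8 lower member calls were made with it. Of the 400 member tests 51 had an unadjusted p under 0.05. Among all transcripts the number under 0.05 ran from 53 of 13481 in CMA to 1475 of 14886 in mPoA. The log2FC changed sign for 4 of the 29 calls, to 0.19 for Ddx49, 0.072 for Sf3b5 and 0.84 for Snrpd1 in Arc and to 0.24 for U2af2 in Nts. Without the block, differences between replicate numbers enter the residual, and the unpaired libraries of Arc and mPoA enter the contrast. The cause of the loss of calls was not tested. Calls in FT numbered 73 with DESeq2 (48 higher, 25 lower) and 94 without the low-count filter (67 higher, 27 lower), where 4.37% and 3.28% of all tests were called. Leaving out each replicate in turn gave 1 to 37 calls, 0 to 24 higher and 1 to 13 lower, with 37 (24 and 13) without replicate 1 and 1 (0 and 1) without replicate 4 or replicate 5, where Arc and mPoA could not be fitted. Over all transcripts 3.12% of tests were called without replicate 1 (35.7% in Nts), 0.0725% without replicate 4 and 0.146% without replicate 5. Without replicate 3, and so without the Sham library of 4586 reads, edgeR called 0 of 12953 transcripts in Nts. The 3 Nts calls of members were thus lost, at log2FC of 1.29 for Rbm7, 1.13 for Sf3a1 and -1.69 for U2af2. In raphe 0.00806% of all transcripts were called without replicate 4, 0.736% without replicate 5 and 0.935% without replicate 1, against 6.60% with all replicates. All 6 raphe calls of members were lost without replicate 4 and without replicate 5, and 5 of them without replicate 1. Their log2FC then ranged from -1.16 to -1.02 for Ddx17, from 0.73 to 1.04 for Ddx25, from 0.88 to 1.43 for Dhx36, from 0.81 to 1.41 for Rbm7, from 1.23 to 2.27 for Snrnp70 and from 0.78 to 1.13 for Srsf2 over the 4 replicates left out. Median-ratio size factors, all 8 CGC samples and an adjusted p of 0.05 kept the count within 1.5 times.

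For Sham regions, 2 members were called without the replicate block and 6 at an adjusted p of 0.05, against 32.0% and 68.9% of all transcripts. For cortex against midbrain and brainstem, 7 were called without the replicate block and 7 in FT libraries (39.8% and 50.7% of all transcripts), where the log2FC turned for Dhx36 (-0.055), Snrnp70 (-0.20) and Srsf3 (-0.082). None of these 3 turned signs passed the test. Signs also turned for Ddx25 without replicate 4 (-0.017, with 0.39 the highest of its 4 values) and for U2af2 without replicate 1 (-0.22), without replicate 3 (-0.26, against 0.28 without replicate 4) and with all Sham libraries (-0.00050). None of these members was called in the reported contrast. The replicate-number count was 15 or 16 under every alternative. The cause of these changes was not tested.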

Other observations

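Some libraries of Arc and mPoA had no partner of the same number. In Arc, FT replicates 1 and 3 held 46.3 and 62.0 CPM of Snrnp70, against 79.4 and 264 CPM in FT replicates 4 and 5 and 25.01 and 21.8 CPM in the Sham libraries of those numbers. For Dhx36 the FT libraries of replicates 1 and 3 held 140 and 133 CPM, below the 382 and 375 CPM of Sham replicates 4 and 5, while FT replicates 4 and 5 held 776 and 1527 CPM. Snrpd1 stood at 54.5 and 195 CPM in FT replicates 1 and 3, above both Sham libraries (41.9 and 37.2 CPM), with 17.9 and 19.7 CPM in FT replicates 4 and 5. These unpaired libraries enter the blocked fit through the filter and normalization, and without replicate 1 the calls over all transcripts went from 3551 to 3677 in Arc and from 1428 to 1574 in mPoA.

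Across regions, the FT to Sham ratios of some members ran together within each replicate number. The pair of Dhx36 and Srsf2 had Pearson's r of 0.66, 0.68, 0.84 and 0.65 in replicates 1, 3, 4 and 5, over 22, 22, 25 and 25 regions. That of Dhx36 and Srsf3 had 0.78, 0.61, 0.75 and 0.56. These pairs were picked because their lowest r over the replicate numbers was the highest among the 120. Other pairs ran opposite, such as Prpf19 and Srsf7 with -0.82, -0.72, -0.52 and -0.65. Over the 120 pairs of members the median r lay between -0.03 and 0.10 in each number. The regions share animals, and both members of a pair are measured in the same libraries, so these values are a description.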
